A study of Mus musculus with 8 samples.

Results

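The SLC25 family is the largest family of carriers in the mitochondrial inner membrane, and its members in mouse liver were taken as the genes whose platform symbol starts with Slc25a, each read on its brightest probe set by mean over all 8 arrays. This gave 44 of 18193 genes that had a probe set with a single symbol. The 44 genes had 93 such probe sets, and 23 of them had more than 1. RNA came from whole liver of 3 control mice, labelled WT, and 5 POMCMfn2KO mice, in which Mfn2, a gene of mitochondrial fusion, is lost from the POMC neurons of the brain and not from the liver. All 8 mice were 6 weeks old, were of a mixed C57Bl/6J, FVB/N and 129 background and had free access to water and chow, and each gave 1 array. The labels used here name no sex, Cre driver or collection time.

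SLC25 proteins move phosphate, nucleotides, carboxylic acids, amino acids, acylcarnitines and cofactors across a membrane that is otherwise closed to them. In liver they link mitochondria to glucose production, the urea cycle, fat oxidation and the export of citrate for fat synthesis. Most are built from repeats of a short carrier domain and are inserted by the TIM22 import machinery.

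Levels are log2 RMA values, and a difference is POMCMfn2KO minus control on that scale. Of the 44 carriers, 36 had a mean at or above 5.80, the median over all non-control probe sets, and were tested in a limma fit over all 11986 genes that passed this filter. A carrier is said to rise or fall where its limma p, adjusted by Benjamini-Hochberg over those genes, was under 0.05. The replicates are called biological in the series' design text.

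Of the 36 tested carriers, 2 rose and 4 fell, 6 in all or 16.7%, against a background of 18.0% of all genes tested. The background was 7.02% for rises and 10.9% for falls, so the share of carriers that changed was near that of other genes. Slc25a47 and Slc25a33 rose, and Slc25a10, Slc25a40, Slc25a48 and Slc25a16 fell. The median difference was 0.03 over the 36 carriers and -0.02 over all genes tested, and the median size of the difference was 0.15 and 0.14. The 2 groups were fully apart for 10 carriers, 5 with POMCMfn2KO higher and 5 with it lower, where the background was 28.5% in either direction, 12.0% for higher and 16.5% for lower. Leaving out POMCMfn2KO 2 and 3, which carried many pancreatic transcripts, left 1 carrier that rose (Slc25a47) and 2 that fell (Slc25a48 and Slc25a40), 8.33% of the carriers, where 5.34% of all genes then passed. Without any single control, or without POMCMfn2KO 3 or 5, 1 carrier rose. Leaving out a control lowered the share called to between 6.84% and 7.20% of all genes and to between 11.1% and 13.9% of the carriers. Slc25a40 passed the filter only through its controls, so its call is given as a description of that carrier. The counts above of carriers that fell or lay fully apart include it. With Slc25a40 set aside, the carriers that fell were Slc25a10, Slc25a48 and Slc25a16, and without POMCMfn2KO 2 and 3 only Slc25a48 fell.

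The sequences just before the start sites of the carriers that rose, Slc25a47 and Slc25a33, and of the carriers with the largest falls, Slc25a10 and Slc25a40, are shown for the genes on which the comparison turns. Each is the 250 bases before the RefSeq start site on GRCm38.p6, written 5′ to 3′ on the gene's strand, and capitals mark matches to the motifs named after them. They lie at chr12:108850879-108851128 (+ strand) for Slc25a47, chr4:149774268-149774517 (- strand) for Slc25a33, chr11:120491587-120491836 (+ strand) for Slc25a10 and chr5:8422588-8422837 (+ strand) for Slc25a40.
Slc25a47: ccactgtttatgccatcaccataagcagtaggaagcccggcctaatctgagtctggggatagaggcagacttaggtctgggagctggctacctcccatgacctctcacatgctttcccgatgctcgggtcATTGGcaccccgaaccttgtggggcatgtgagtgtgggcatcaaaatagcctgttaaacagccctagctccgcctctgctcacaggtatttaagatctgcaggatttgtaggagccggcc
Slc25a33: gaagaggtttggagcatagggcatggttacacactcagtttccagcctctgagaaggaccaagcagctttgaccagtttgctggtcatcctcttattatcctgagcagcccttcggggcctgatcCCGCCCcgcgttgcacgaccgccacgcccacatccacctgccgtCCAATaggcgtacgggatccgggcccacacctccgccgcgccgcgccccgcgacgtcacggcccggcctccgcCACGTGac
Slc25a10: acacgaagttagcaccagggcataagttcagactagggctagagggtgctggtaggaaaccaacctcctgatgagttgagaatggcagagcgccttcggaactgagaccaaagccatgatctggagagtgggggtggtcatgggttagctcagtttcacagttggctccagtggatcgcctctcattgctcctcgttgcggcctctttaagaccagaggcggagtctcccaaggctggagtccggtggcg
Slc25a40: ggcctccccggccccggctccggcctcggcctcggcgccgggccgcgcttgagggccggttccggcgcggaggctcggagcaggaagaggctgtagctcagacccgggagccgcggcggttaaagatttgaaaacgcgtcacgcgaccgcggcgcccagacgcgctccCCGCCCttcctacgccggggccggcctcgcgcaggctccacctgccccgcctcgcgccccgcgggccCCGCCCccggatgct
The motifs searched on both strands were the GC box GGGCGG, the CCAAT box CCAAT, the TATA box TATAAA, the E-box CACGTG, the cAMP response element TGACGTCA, the D-box TTATGTAA and the DR1 element, and no 2 matches overlapped in the 4 printed stretches. Slc25a33 held a GC box, a CCAAT box and an E-box, Slc25a47 held 1 CCAAT box, Slc25a40 held 2 GC boxes and Slc25a10 held none of the 7 motifs. No motif of the set was therefore present in all 4 stretches, while Slc25a33 shared the GC box with Slc25a40 and the CCAAT box with Slc25a47. A RefSeq window was found for 34 of the 44 carriers. The genes with a window, given beside them, were not limited to protein-coding genes, and the differences in share were not tested. In them the GC box was present for 25 carriers (73.5%, against 35.4% of 27025 genes with a window), the CCAAT box for 17 (against 37.5% of genes), the E-box for 7 (20.6% against 6.86%), the TATA box for 1 (2.94% against 14.3%) and the cAMP response element for 2 (5.88% against 1.77%). The D-box and the DR1 element were found in none of the carriers' windows, against 0.977% and 0.0407% of genes. The median GC content was 58.0% over the carriers' 43 windows and 52.4% over all 32851.

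**Figure D1:**
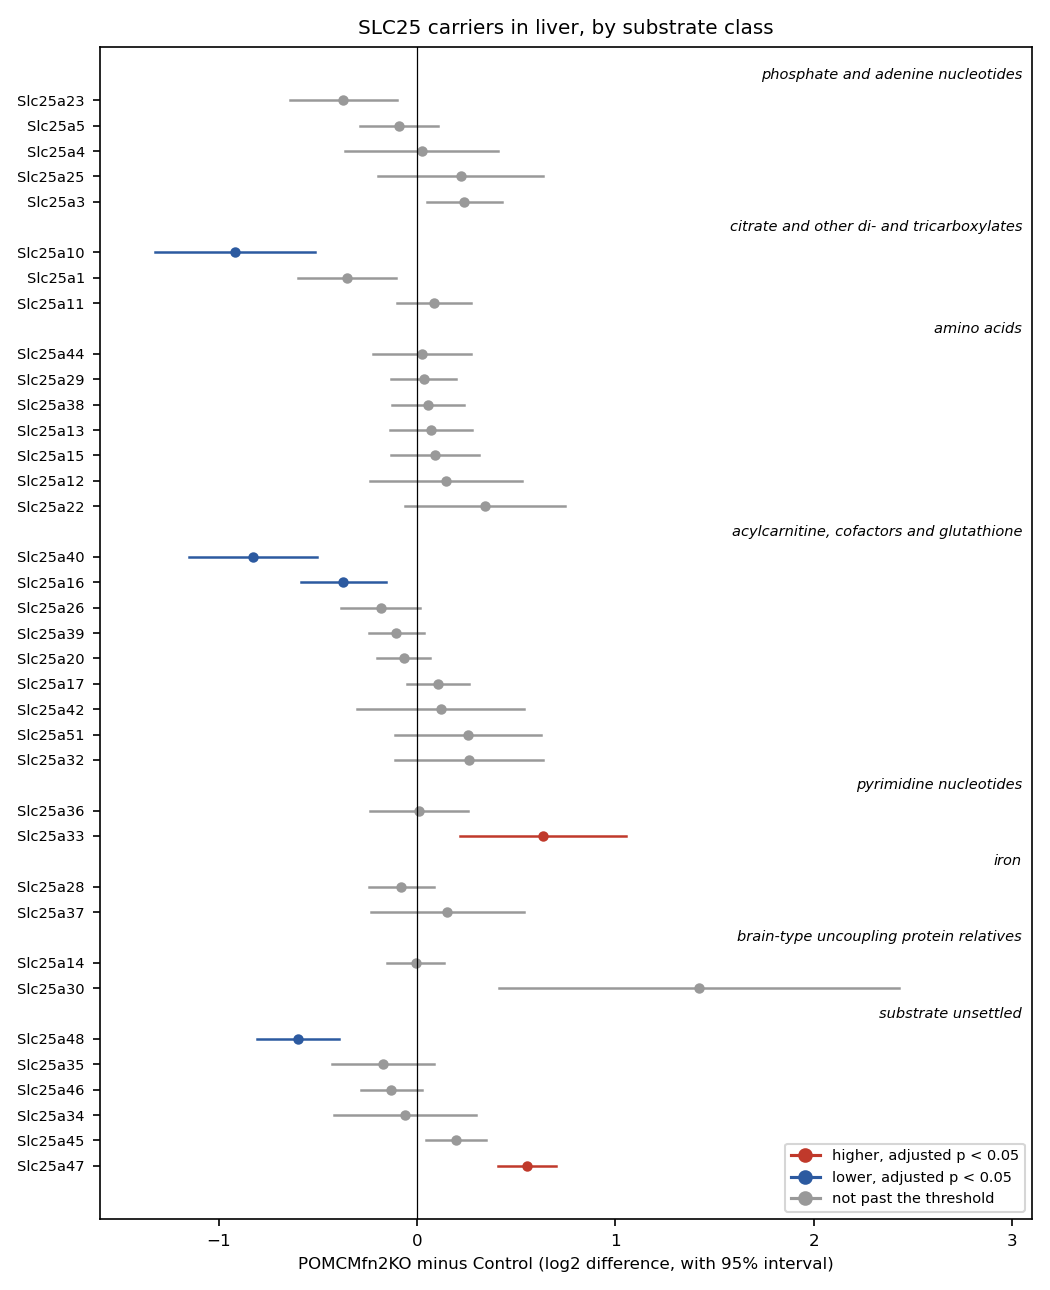
Differences between POMCMfn2KO and control liver on the log2 scale for the 36 tested carriers, grouped by substrate class; points are limma estimates and lines their 95% intervals. The 2 carriers that rose (red) and the 4 that fell (blue) lie in 4 classes, and Slc25a30 has the largest difference (1.42) and the widest interval.

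Among the carboxylate carriers, the dicarboxylate carrier fell. Slc25a10 exchanges malate or succinate for phosphate. Its level was 10.91, 10.84 and 10.91 in the 3 controls and 10.06, 9.74, 9.75, 10.56 and 9.74 in POMCMfn2KO 1 to 5. Every POMCMfn2KO array was below every control, and POMCMfn2KO 4 was nearest to them. The mean went from 10.89 ± 0.04 (SD, n = 3) to 9.97 ± 0.36 (SD, n = 5), a 1.89-fold fall (log2 difference -0.92, SE 0.18, limma adjusted p = 0.00988). A dimmer probe set gave -0.86, also without overlap. Without POMCMfn2KO 2 and 3 the difference was -0.77 and the call was lost (limma adjusted p = 0.0634).

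Slc25a1, which exports citrate for fatty acid and sterol synthesis, was also below the controls in every POMCMfn2KO array but did not pass. It was 10.37, 10.37 and 10.50 in controls and 9.74, 10.02, 10.12, 10.26 and 10.14 in POMCMfn2KO (difference -0.35, 95% interval -0.60 to -0.11, limma adjusted p = 0.0523). It passed in 7 of 18 alternatives, among them those without POMCMfn2KO 1 (adjusted p = 0.0288) and without POMCMfn2KO 4 (adjusted p = 0.0255). Over all 18 its adjusted p ranged from 0.00661 to 0.178, and it was highest without control 3. The oxoglutarate carrier Slc25a11, which trades oxoglutarate for malate in the malate-aspartate shuttle, differed by 0.09 (interval -0.10 to 0.27). Of the 3 carboxylate carriers on the array, all tested, 1 fell and none rose, where 10.9% of all genes fell and 7.02% rose.

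In the list of genes around citrate export, acetyl-CoA and NADPH, 3 of 7 tested fell and none rose, with a median difference of -0.20. Of all genes tested, 10.9% fell and 7.02% rose. Acly, which splits citrate into acetyl-CoA, went from 10.49 ± 0.09 to 9.93 ± 0.14, Acss2, which makes acetyl-CoA from acetate, from 10.23 ± 0.05 to 9.66 ± 0.28, and the mitochondrial isocitrate dehydrogenase Idh2 from 10.15 ± 0.11 to 9.84 ± 0.12 (SD, n = 3 and 5). Of 6 genes of the malate-aspartate and glycerol phosphate shuttles, the mitochondrial glycerol phosphate dehydrogenase Gpd2 rose, from 9.65 ± 0.02 to 10.18 ± 0.29, and none fell.

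Among the carriers of phosphate and adenine nucleotides, some of which feed ATP synthase, none of the 5 tested passed in limma. At an unadjusted p under 0.05 there were 2, the phosphate carrier Slc25a3 and the ATP-Mg/phosphate carrier Slc25a23. Slc25a3 was higher in every POMCMfn2KO array than in any control, at 12.64 ± 0.10 against 12.88 ± 0.12 (difference 0.24, limma adjusted p = 0.0787). Slc25a23 was lower in every array, at 8.86 ± 0.09 against 8.49 ± 0.22 (difference -0.37, limma adjusted p = 0.0597), and it passed without POMCMfn2KO 1 (adjusted p = 0.0251) or 4 (adjusted p = 0.0324). Its relative Slc25a25 differed by 0.22 (interval -0.20 to 0.64).

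The ADP/ATP translocase Slc25a5 was 13.69, 13.63 and 13.60 in controls and 13.80, 13.49, 13.50, 13.46 and 13.48 in POMCMfn2KO. POMCMfn2KO 1 lay above all controls and the other 4 lay below them, and the difference of -0.09 (interval -0.29 to 0.10) did not pass. Its 8 probe sets all gave differences between -0.20 and -0.02; probe sets whose name ends in x_at, as the brightest does, can bind related transcripts. The heart and muscle type Slc25a4 differed by 0.02 (interval -0.36 to 0.41), with 8.41 in POMCMfn2KO 3 against 7.59 to 7.89 in the other 4. Summed markers of skeletal muscle, 6 of 6 on the array, were between 8.40 and 8.84 in controls and between 8.47 and 9.87 in POMCMfn2KO with POMCMfn2KO 3 highest, and their part in the value of Slc25a4 was not tested. Of 16 ATP synthase genes, the inhibitor Atpif1 fell from 9.19 ± 0.06 to 8.36 ± 0.26 (limma adjusted p = 0.00496) and none rose. The list's median was 0.01, and of all genes tested 10.9% fell and 7.02% rose.

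No amino acid carrier passed in limma, and none had an unadjusted p under 0.05. All 7 tested had a difference above 0, from 0.03 to 0.34, but under at least 1 alternative the sign turned for Slc25a12, Slc25a29, Slc25a38 and Slc25a44. The ornithine carrier of the urea cycle, Slc25a15, was 12.92, 12.96 and 12.90 in controls and 13.27, 12.92, 12.96, 13.12 and 12.83 in POMCMfn2KO, so the groups overlapped (difference 0.09, interval -0.13 to 0.31). The liver aspartate/glutamate carrier citrin, Slc25a13, differed by 0.07 (interval -0.14 to 0.28) and its relative aralar, Slc25a12, by 0.15 (interval -0.24 to 0.53). The largest difference in the class was that of the glutamate carrier Slc25a22, at 10.08, 10.08 and 10.14 in controls and 11.06, 10.31, 10.40, 10.31 and 10.12 in POMCMfn2KO (0.34, limma adjusted p = 0.221); POMCMfn2KO 1 was far above the rest and POMCMfn2KO 5 lay among the controls. Its difference was 0.19 without POMCMfn2KO 1 (adjusted p = 0.105), and with array weights, where 36.7% of all genes were called, it passed (0.28, adjusted p = 0.0417). The basic amino acid carrier Slc25a29 (0.03), the glycine carrier Slc25a38 (0.05) and the branched-chain amino acid carrier Slc25a44 (0.03) had the smallest differences of the class.

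Among the enzymes beside these carriers, the shares that passed are to be read against the 18.0% of all genes. Of 8 tested genes of the urea cycle and ornithine metabolism, Cps1, which makes carbamoyl phosphate, rose from 14.18 ± 0.01 to 14.49 ± 0.12 (limma adjusted p = 0.0264) and none fell, with a median difference of 0.07. The largest difference of that list was that of Oat, the ornithine aminotransferase, at 13.78 ± 0.02 against 12.92 ± 0.70 (difference -0.87, limma adjusted p = 0.106), and the groups overlapped. Of 10 genes of serine, glycine and folate metabolism, Mthfd1, a cytosolic folate enzyme, fell from 11.34 ± 0.06 to 10.99 ± 0.17, Gcsh, a part of the glycine cleavage system, fell from 11.92 ± 0.05 to 11.60 ± 0.16, and none rose.

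Among carriers of acylcarnitines, cofactors and glutathione, 2 of 9 fell and none rose, where 10.9% of all genes fell. With Slc25a40 set aside, which passed the filter only through its controls, only Slc25a16 fell. Slc25a40, a carrier linked to mitochondrial glutathione import, was 6.64, 6.56 and 6.51 in controls and 6.08, 5.38, 5.77, 5.92 and 5.57 in POMCMfn2KO. All POMCMfn2KO arrays lay below all controls, with POMCMfn2KO 2 lowest. The mean fell from 6.57 ± 0.07 (SD, n = 3) to 5.74 ± 0.28 (SD, n = 5), 1.77-fold (difference -0.83, SE 0.14, limma adjusted p = 0.00646). That POMCMfn2KO mean is under the filter level of 5.80, so background limits the size of the fall. It was the only carrier with group means on both sides of that level, and it was not tested under the filter at the 60th percentile. Its glutathione-carrying relative Slc25a39 was 13.59, 13.55 and 13.62 in controls and 13.56, 13.44, 13.49, 13.54 and 13.38 in POMCMfn2KO, which overlap (difference -0.10, interval -0.24 to 0.04). The 5 probe sets of Slc25a39 gave -0.10 to 0.06.

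Slc25a16, a carrier tied to mitochondrial coenzyme A, was 10.62, 10.54 and 10.33 in controls and 10.17, 10.02, 10.03, 10.33 and 10.08 in POMCMfn2KO. The groups met at control 3 and POMCMfn2KO 4. The mean fell from 10.49 ± 0.15 to 10.12 ± 0.13, 1.29-fold (difference -0.37, SE 0.09, limma adjusted p = 0.0272). The call was lost without control 1 (adjusted p = 0.123), control 2 (0.109), POMCMfn2KO 2 (0.0598) or POMCMfn2KO 3 (0.0628), and without POMCMfn2KO 2 and 3 together (0.141). Slc25a42, the other coenzyme A carrier, differed by 0.12 (interval -0.30 to 0.54). Of 8 genes of coenzyme A synthesis, the pantothenate kinase Pank2 fell, from 8.30 ± 0.06 to 8.07 ± 0.08, and none rose. The background over all genes tested was 10.9% for falls and 7.02% for rises.

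Slc25a20, which brings acylcarnitines in for oxidation, differed by -0.07 (interval -0.20 to 0.07), and a dimmer probe set gave -0.05. Of 5 tested genes of the carnitine shuttle, which includes Cpt1a and Cpt2, none passed in limma, where 18.0% of all genes passed. In limma 1 of the 5 had an unadjusted p under 0.05. The NAD carrier Slc25a51 differed by 0.26 (limma adjusted p = 0.307) on its brightest probe set and by 0.68 and 0.23 on the others. It passed without POMCMfn2KO 4 (0.38, limma adjusted p = 0.0267), where 22.9% of all genes passed. The folate or FAD carrier Slc25a32 (0.26), the S-adenosylmethionine carrier Slc25a26 (-0.18) and the peroxisomal carrier Slc25a17 (0.11) did not pass.

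**Figure D2:**
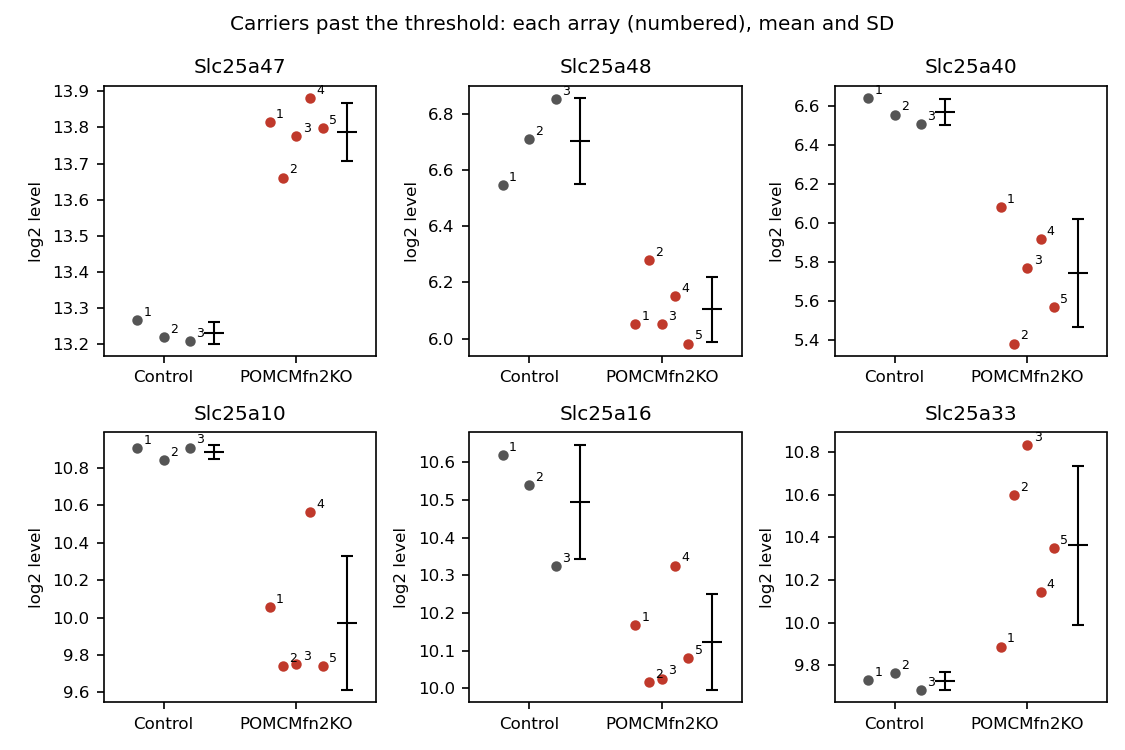
Log2 level of the 6 carriers that passed the threshold, in each array. Points are arrays numbered by replicate, and bars beside them are the mean and SD of 3 controls and 5 POMCMfn2KO. The groups are apart for 5 of the carriers and meet for Slc25a16, and the vertical axes do not start at 0.

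The pyrimidine nucleotide carrier Slc25a33 rose and its relative Slc25a36 did not pass. Slc25a33 was 9.73, 9.77 and 9.68 in controls and 9.89, 10.60, 10.83, 10.14 and 10.35 in POMCMfn2KO. Every POMCMfn2KO array was above the controls, POMCMfn2KO 1 only just. The mean went from 9.73 ± 0.04 (SD, n = 3) to 10.36 ± 0.37 (SD, n = 5), 1.55-fold (difference 0.64, SE 0.19, limma adjusted p = 0.0431). The call was lost without control 1, 2 or 3 (adjusted p = 0.129, 0.119 and 0.136) and without POMCMfn2KO 2 (0.0891), 3 (0.0619) or 5 (0.0671). Without POMCMfn2KO 2 and 3 the difference was 0.40 (adjusted p = 0.10). Slc25a36 differed by 0.01 (interval -0.24 to 0.26).

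Slc25a30, a kidney mitochondrial carrier related to the uncoupling proteins, had the largest difference of the family and did not pass. It was 9.65, 9.79 and 9.76 in controls and 10.08, 12.53, 11.45, 11.15 and 10.57 in POMCMfn2KO, so all 5 lay above the controls, POMCMfn2KO 1 nearest to them and POMCMfn2KO 2 far above. The difference was 1.42, 2.68-fold, with an SE of 0.45 and a 95% interval of 0.41 to 2.43 (limma adjusted p = 0.0563). Its 3 further probe sets that were not dim gave 1.32, 1.39 and 1.04, and the groups overlapped on the one that gave 1.39. None of these 3 passed in a limma fit over all probe sets. On its brightest probe set Slc25a30 passed without POMCMfn2KO 1 (1.69, adjusted p = 0.0156) and without POMCMfn2KO 2 (1.08, adjusted p = 0.0460).

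Pancreatic acinar transcripts were high in the arrays where Slc25a30 and Slc25a33 were highest. Of 12 acinar markers 9 were on the array, and their summed level was between 10.26 and 10.29 in controls, 14.27 and 14.40 in POMCMfn2KO 2 and 3, and between 10.30 and 10.96 in the other 3. In those other 3 arrays Slc25a30 was still above the controls (difference 0.87 without POMCMfn2KO 2 and 3) but did not pass (limma adjusted p = 0.0829). The part of these transcripts in either value was not tested. In whole liver, fewer cells of a type and less RNA per cell cannot be told apart.

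**Figure D3:**
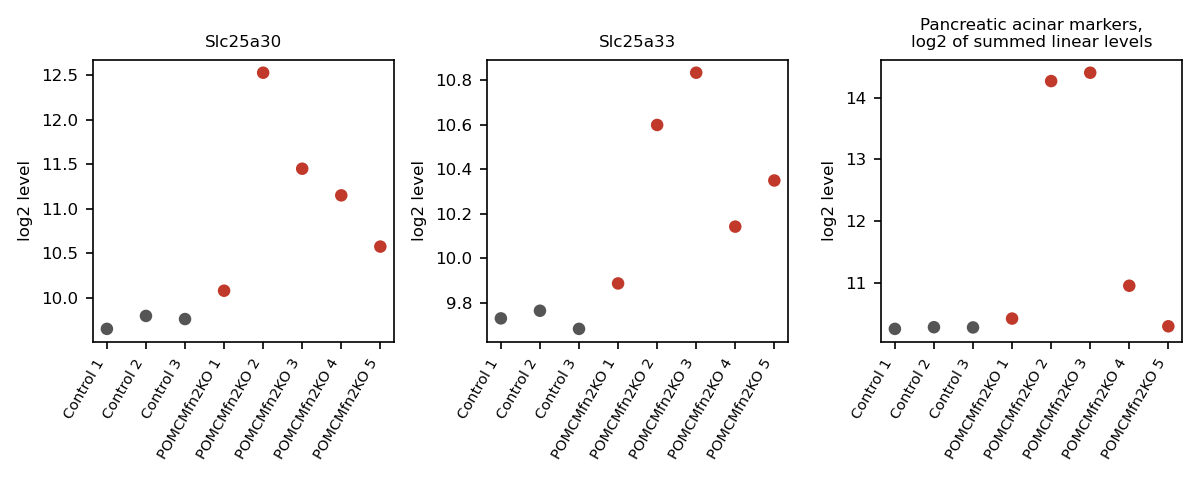
Log2 level of Slc25a30 and Slc25a33 and the log2 of the summed linear levels of 9 pancreatic acinar markers, in each array (controls grey, POMCMfn2KO red). POMCMfn2KO 2 and 3 are highest in all 3 panels, and for both carriers POMCMfn2KO 1, 4 and 5 are also above the controls; the vertical axes do not start at 0.

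The brain-type relative Slc25a14 differed by -0.01 (interval -0.15 to 0.14), and Slc25a27 was dim. Among family members listed under other symbols, Mtch2, which inserts proteins into the outer mitochondrial membrane, rose from 11.06 ± 0.02 to 11.55 ± 0.16 (difference 0.49, limma adjusted p = 0.00928). It was 1 of 2 tested genes of that list, where 7.02% of all genes rose.

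The mitoferrins, which bring iron in for haem and iron-sulphur clusters, did not pass, and neither had an unadjusted p under 0.05 in limma. Slc25a28, the broadly expressed form, was 8.92, 8.89 and 8.87 in controls and 8.98, 8.74, 8.76, 8.86 and 8.74 in POMCMfn2KO (difference -0.08, interval -0.24 to 0.08). Slc25a37, the erythroid form, differed by 0.15 (interval -0.23 to 0.54), with 7.85 in POMCMfn2KO 5 and 6.92 in POMCMfn2KO 1 against 7.16 to 7.26 in controls. Erythroid markers, 6 of 10 on the array, summed to 9.27 to 9.43 in controls and 8.90 to 10.56 in POMCMfn2KO, highest in POMCMfn2KO 4 and lowest in POMCMfn2KO 5. In POMCMfn2KO 4 the marker Alas2 was 10.20, against 7.78 to 8.12 in the other POMCMfn2KO arrays. There Hbb-b2 was 6.61 and Klf1 7.29, against 6.50 to 7.16 and 7.33 to 7.48 in controls. The dim Hba-a1 (4.38) and Slc4a1 (4.78) were below the controls in that array, and the dim Epb42 (4.91) was just above them.

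Of 14 tested genes of haem synthesis and iron-sulphur clusters, 4 fell and none rose, with a median difference of -0.14, where 10.9% of all genes fell. Alad, the second enzyme of haem synthesis, went from 12.02 ± 0.05 to 11.24 ± 0.43 and Urod, a later one, from 11.15 ± 0.07 to 10.76 ± 0.14. The scaffold gene Iscu went from 12.10 ± 0.03 to 11.81 ± 0.11 and Glrx5, a glutaredoxin that passes clusters on, from 12.42 ± 0.03 to 12.13 ± 0.14. Fech, which inserts iron into haem, did not pass, at 11.45 ± 0.01 against 11.24 ± 0.15 (difference -0.21, limma adjusted p = 0.133).

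Among carriers whose substrate is not settled, Slc25a47 rose and Slc25a48 fell. Slc25a47, a carrier known for its near restriction to hepatocytes, was 13.27, 13.22 and 13.21 in controls and 13.82, 13.66, 13.78, 13.88 and 13.80 in POMCMfn2KO. All POMCMfn2KO arrays stood above all controls. The mean rose from 13.23 ± 0.03 (SD, n = 3) to 13.79 ± 0.08 (SD, n = 5), 1.47-fold (difference 0.55, SE 0.06, limma adjusted p = 0.00112), and the call held in all 18 alternatives, with adjusted p up to 0.0138. Its probe set, the only one for the gene, has a name ending in s_at and can bind more than 1 transcript. Slc25a29, its direct neighbour on chromosome 12 in RefSeq, differed by 0.03.

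Slc25a48, linked in recent work to mitochondrial choline uptake, was 6.55, 6.71 and 6.85 in controls and 6.05, 6.28, 6.05, 6.15 and 5.98 in POMCMfn2KO. The POMCMfn2KO arrays lay below all controls. The mean fell from 6.70 ± 0.15 to 6.10 ± 0.12, 1.52-fold (difference -0.60, SE 0.09, limma adjusted p = 0.00369). Its 2 other probe sets were dim and gave -0.11 and -0.15. Slc25a48 was not tested under the filter at the 60th percentile or with the mean of all probe sets, and the call held in the other 16 alternatives. Slc25a45 was above the controls in every POMCMfn2KO array, at 9.11 ± 0.06 against 9.31 ± 0.08 (difference 0.20, limma adjusted p = 0.0733). Slc25a46, an outer membrane member with a role in mitochondrial shape, differed by -0.13 (interval -0.28 to 0.02), Slc25a34 by -0.06 and Slc25a35 by -0.17.

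The 8 carriers below the filter were not tested in the main comparison. They were Slc25a2, Slc25a18, Slc25a24, Slc25a27, Slc25a31, Slc25a41, Slc25a53 and Slc25a54, with means in the groups between 3.58 and 6.03. The largest difference among them was that of Slc25a24, at 6.03 ± 0.29 in controls and 5.55 ± 0.16 in POMCMfn2KO, and their groups all overlapped. In the limma fit without a filter, over 18193 genes, Slc25a24 was called lower (difference -0.48, adjusted p = 0.0451) and the other 7 were not called. Neighbouring carrier genes in RefSeq were Slc25a41 with Slc25a23 and Slc25a54 with Slc25a24, besides Slc25a29 with Slc25a47.

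The POMCMfn2KO arrays were less alike than the controls in the carriers. The median SD was 0.06 in controls and 0.18 in POMCMfn2KO over the 36 carriers, against 0.07 and 0.13 over all genes tested, and the SD was larger in POMCMfn2KO for 32 carriers (88.9%), and for 9593 of all 11986 genes. POMCMfn2KO 1 was the highest of the 5 for 14 carriers (38.9%, against 27.1% of genes) and the lowest for 10 (27.8% against 27.1%). POMCMfn2KO 2 was also the lowest for 10 carriers (27.8% against 17.9% of genes), and POMCMfn2KO 4 was the highest for 11 (30.6% against 21.7%). The median distance of POMCMfn2KO 1 from the control mean was 0.29 over the carriers and 0.18 over all genes. In the other 4 arrays this distance was 0.17 to 0.22 over the carriers. POMCMfn2KO 1 was the highest for Slc25a22, for Slc25a32 (8.43 against 7.60 to 7.95 in the other 4) and for Slc25a51 (11.61 against 10.72 to 11.30), and the lowest for Slc25a1 and Slc25a23.

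**Figure D4:**
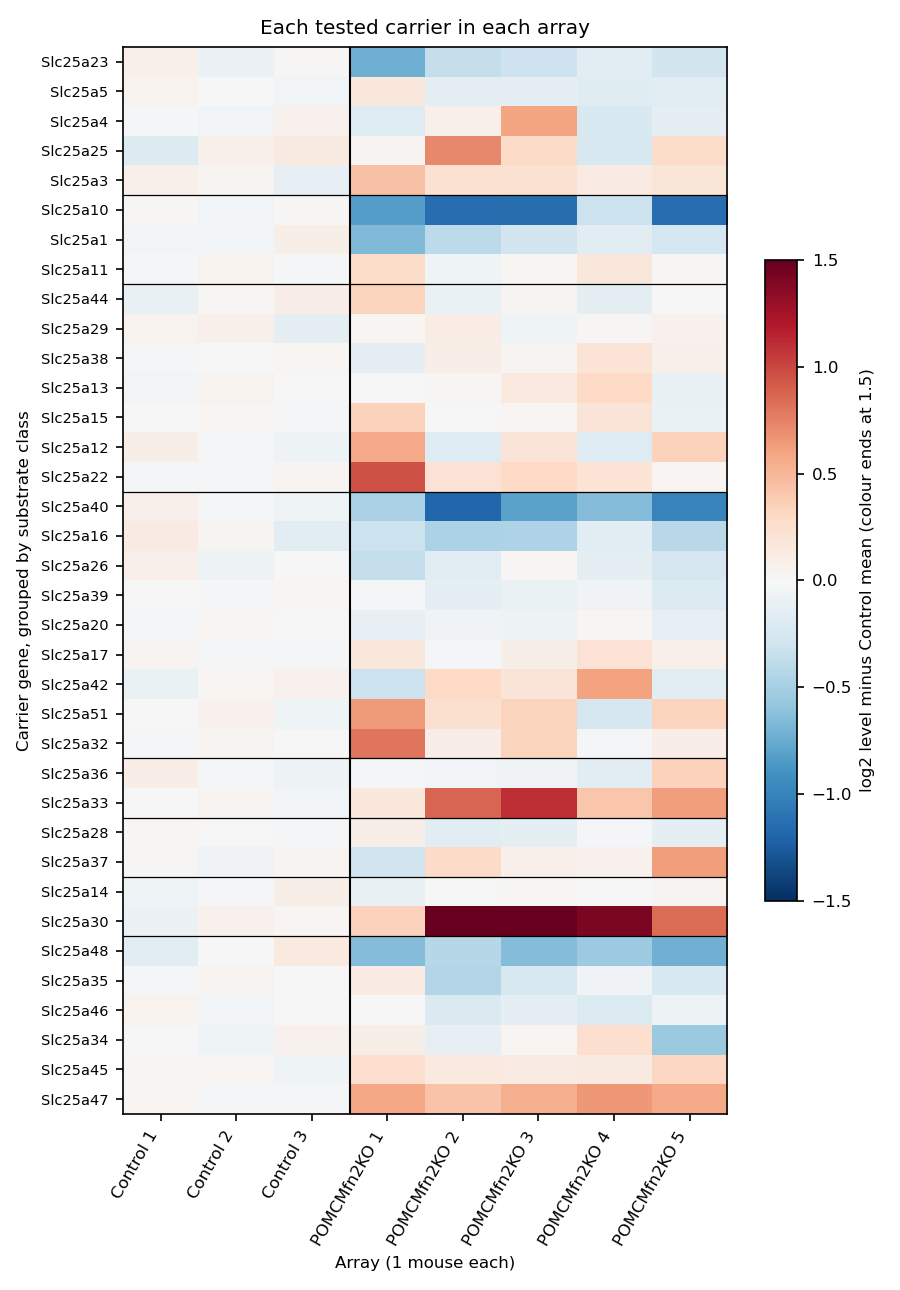
Log2 level minus the control mean for each tested carrier (rows, grouped by substrate class) in each array (columns), with the colour scale ending at 1.5. The POMCMfn2KO columns differ among themselves, and Slc25a10, Slc25a40 and Slc25a48 are below and Slc25a47 above the control mean in all 5.

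The machinery that imports carriers changed in 2 of 12 genes, where 18.0% of all genes changed. Timm9, a small chaperone of the space between the membranes, rose from 8.50 ± 0.02 to 8.87 ± 0.16 (limma adjusted p = 0.0243), and Timm22, the channel-forming insertase, fell from 8.84 ± 0.13 to 8.57 ± 0.06 (limma adjusted p = 0.0345). The median of the list was 0.00. Of 4 outer membrane channel and pyruvate carrier genes, Mpc1, a subunit of the mitochondrial pyruvate carrier, fell from 12.86 ± 0.02 to 12.44 ± 0.14 (difference -0.42, limma adjusted p = 0.0111). Over all partner lists, 4 of 92 tested genes rose and 13 fell, 18.5% in all against 18.0% of all genes, with a median difference of -0.01. Without POMCMfn2KO 2 and 3, none rose and 2 fell, 2.17% against 5.34% of all genes. Without control 1, 2 or 3, the partner genes that fell numbered 2, 4 and 4 and 1 rose each time; without POMCMfn2KO 2, 4 fell, and without POMCMfn2KO 3, 7 fell and 1 rose.

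As a check of the tissue, the hepatocyte marker Alb was between 15.24 and 15.28 in every array. Hepatocyte markers (5 of 6 on the array) summed to 17.03 to 17.04 in controls and 17.06 to 17.19 in POMCMfn2KO, without overlap. Cps1 rose by 0.31, 1 of 5 tested, where 7.02% of all genes rose. Apoa1 (0.12), Tat (0.44) and Ttr (-0.11) did not pass. The groups were fully apart for 4 of the 5, all but Alb, against 28.5% of all genes. Single markers of other cells also moved with the group. In the neutrophil list (5 of 6 on the array, summed level 8.79 to 8.86 in controls and 8.04 to 8.23 in POMCMfn2KO), S100a9 fell by 1.56 and the dim S100a8 differed by -1.47, while Elane (0.09), Camp (-0.09) and Ngp (-0.19) did not pass. In the B cell list (5 of 6, summed level 9.63 to 10.26 and 8.70 to 9.01), Ighm fell by 1.87, while Cd22 (-0.06) did not pass and Cd79a (-0.04), Cd79b (-0.33) and Ms4a1 (0.01) were dim. In the sinusoidal endothelium list (6 of 6, summed level 11.87 to 12.24 and 12.19 to 12.54), Stab2 rose by 0.55 and Fcgr2b by 0.41, 2 of 5 tested, where 7.02% of all genes rose. In the Kupffer cell and macrophage list (8 of 8, summed level 13.14 to 13.44 and 12.60 to 13.35), Timd4 fell by 0.69 and no other marker passed. The differences in that list ran from -0.69 to 0.10, the last for Clec4f, with a median of -0.34. In limma 4 of 8 were lower at an unadjusted p under 0.05, as were 2289 of all 11986 genes. Stellate cell markers (6 of 6) summed to 12.88 to 13.00 in controls and 13.03 to 13.10 in POMCMfn2KO, and none of the 6 passed in limma, with 1 higher at an unadjusted p under 0.05. The part of these markers in the carriers' values was not tested. Mfn2 itself was 9.88 ± 0.08 in control and 9.61 ± 0.24 in POMCMfn2KO liver (limma adjusted p = 0.169); liver is not the tissue of the deletion, so this checks no label.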

How the data were processed

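The authors deposited 1 log2 value for each probe set and array; RMA and affy are named in the submitters' processing notes, while versions and the scanner files are not given in the sources used here. Of 45101 probe sets, 64 were controls, 34945 had 1 gene symbol, 932 several and 9160 none. Array medians lay between 5.79 and 5.81. Arrays carry no read depth, so their number limits the precision.

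For each gene the probe set with the highest mean was kept, genes under 5.80 were left out as dim, and limma 3.58.1 in R 4.3.3 (no trend, not robust, 2-sided) compared POMCMfn2KO with control over 11986 genes. The fit was tested on simulated data in which both groups had the same SD for each gene. The larger spread of the measured POMCMfn2KO arrays was not part of that simulation, so it cannot show how the fit deals with it. The members and lists were chosen with earlier results of these data known, and substrate classes follow general knowledge of the carriers. Array values are given for carriers past the threshold and for the brightest of each class. Partner genes past the threshold are named, at most 4 a list with the lowest p. Array values of Slc25a1 and Slc25a22 were added after their values were seen. Single array values of Slc25a4, Slc25a32, Slc25a37 and Slc25a51, and the partner genes Oat and Fech, which did not pass, also lie outside this rule. Alternatives changed the filter, probe set, scaling, variance model, threshold and arrays. Deviations of arrays with the same replicate number correlated between -0.03 and 0.04, so numbers were not used as a pairing. A probe set shared by Slc25a37 and another gene was not used. Promoter windows and gene neighbours came from RefSeq tables on GRCm38.p6. Figures used matplotlib 3.10.9.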

Additional observations from a re-analysis of the deposited data

Results flagged for a closer look

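In 3 of 53 genes looked at (the 36 tested carriers and 17 partner genes), 1 of the 5 POMCMfn2KO arrays stood far from the other 4; chance alone sets about 1 in 20 such groups apart. Slc25a5, the ADP/ATP translocase, was 13.80 in POMCMfn2KO 1 against 13.46 to 13.50 in the others. Slc25a14 was 6.81 in POMCMfn2KO 1 against 6.92 to 6.95. The pyrimidine carrier Slc25a36 was 7.80 in POMCMfn2KO 5 against 7.29 to 7.43. None of these 3 carriers passed the test between the groups, with or without that array.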

How the results depend on the processing

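Of 643 values of single carriers under the alternatives, 592 kept their direction and their side of the threshold, 14 lost the call (3 carriers), 18 gained it (8 carriers) and 19 turned sign (8 carriers, none called). Settings in which a carrier was under the filter, as for Slc25a40 and Slc25a48, are not among the 643. Array weights called 6 carriers higher and 7 lower, and 11 and 23 partner genes, which is 36.1% of the carriers and 37.0% of the partner genes, where 36.7% of all genes were called. With the replicate block, 1 carrier and 2 partner genes were higher, Slc25a33 lost its call (adjusted p = 0.0585), and 1891 genes were called in place of 2152. A threshold of 0.1 gave 5 higher carriers and 8 higher partner genes. Without POMCMfn2KO 2 and 3 there were 1 higher and 2 lower carriers and 0 higher and 2 lower partner genes. Leaving out single arrays gave 1 to 3 higher and 3 to 6 lower carriers, and 1 to 6 higher and 2 to 19 lower partner genes. The cause of these changes was not tested.

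The sign turned as follows. With the mean of all probe sets, Slc25a12 was -0.0141 and Slc25a44 -0.0159. With array weights, Slc25a14 was 0.0177, Slc25a29 -0.00676 and Slc25a36 -0.00277. With the replicate block, Slc25a34 was 0.00130, Slc25a36 -0.0412 and Slc25a38 -0.00140. Without POMCMfn2KO 2 and 3, Slc25a4 was -0.183. Leaving out single arrays gave -0.0386 to 0.0356 for Slc25a14, -0.0324 to 0.0726 for Slc25a29, -0.139 to 0.0646 for Slc25a34, -0.0729 to 0.0579 for Slc25a36, -0.119 to 0.0873 for Slc25a4 and -0.0518 to 0.0750 for Slc25a44. Signal near background limits Slc25a40, Slc25a48 and the 8 dim carriers.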
